A study of Mus musculus with 2 samples.

Results

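Adventitial fibroblasts, taken by a marker rule from single-cell RNA sequencing of mouse lungs, made up 426 of 15695 cells. Of these members, 240 came from lungs of mice that had received control media (CM) and 186 from lungs of mice that had received tumor conditioned media (TCM). A droplet counted as a cell when it held 500 or more UMIs (unique molecular identifiers, each standing for 1 captured RNA molecule) and 200 or more genes, with mitochondrial genes giving no more than 10% of its UMIs. A cell was collagen-positive when its UMIs of Col1a2, Col3a1, Col1a1 and Pdgfra summed to at least 3 and it held no UMI of the leukocyte gene Ptprc, the endothelial gene Cdh5 or the epithelial gene Epcam. A collagen-positive cell was a member when its UMIs of Pi16, Col14a1 and Clec3b summed to at least 2 and to no less than its UMIs of the alveolar fibroblast genes Npnt, Slc7a10 and Spon1. These 13 genes chose the members, so their values below are descriptions.

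Adventitial fibroblasts lie in the connective tissue cuffs around the larger vessels and airways of the lung. They make collagen, decorin and elastic fibre proteins, and they release chemokines and growth factors to the leukocytes, lymphatic vessels and nerves that run in the same cuffs. Pi16 and Dpp4 mark a form of this cell that is found in many tissues. Alveolar fibroblasts, in contrast, sit in the thin walls between air spaces.

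The lungs came from female BALB/c mice aged 9 to 10 weeks, injected intravenously for 3 weeks with either medium. TCM was medium without serum in which pieces of 4T1 tumors, a mouse breast cancer grown in the mammary fat pad, had been kept, and it was used to prepare lungs for metastasis in the absence of a tumor. Whole lungs were dissociated enzymatically without sorting. Each treatment had 1 library, and how many mice contributed to it was not stated.

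With 1 library a treatment, no test between CM and TCM was possible. Cells of 1 library are not replicates, so every interval given is a 95% interval that covers counting error only, and the treatment and the library cannot be told apart. The CM library held 31944151 UMIs and 7988 cells with a median of 2085 UMIs, and the TCM library held 36648719 UMIs and 7707 cells with a median of 2346 UMIs. Passing cells of the 2 libraries shared 93 barcodes, and the members shared 0. Free RNA, which enters droplets from broken cells, was estimated at 125 UMIs per CM member and 233 per TCM member, or 2.64% and 4.42% of their UMIs. The members were deeper than the average cell, with 1138195 UMIs in all and a median of 3747 in CM, and 982274 UMIs with a median of 4858 in TCM. Levels are given as CP100k, the UMIs of a gene per 100000 UMIs of the members of a library.

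The name of the rule held for part of its members. Clec3b, which encodes tetranectin, carried most of the selection: it had a UMI in 227 of 240 CM members and 179 of 186 TCM members. Pi16, a peptidase inhibitor homolog, was seen in 69 CM and 45 TCM members. Col14a1, a fibril-associated collagen, was seen in 109 and 72. Members with Pi16 or Col14a1 numbered 123 in CM (51.2%) and 79 in TCM (42.5%). The other members, 117 in CM and 107 in TCM, were chosen by Clec3b alone.

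Several genes outside the rule, chosen after their values were seen, were found more often in the first kind of member than in the second. Dcn, which encodes the collagen-binding proteoglycan decorin, was found in 75.6% of CM and 72.2% of TCM members with Pi16 or Col14a1, and in 13.7% and 14.0% of those with Clec3b alone. The stem and stromal cell antigen Cd34 was found in 64.2% and 60.8% of the first kind, against 20.5% and 19.6% of the second. Cygb, which encodes cytoglobin, gave 78.9% and 78.5% against 30.8% and 20.6%, and Mfap5 77.2% and 77.2% against 40.2% and 22.4%. Dpp4 was found in 6.50% and 8.86% of the first kind and in 2.56% and 8.41% of the second. The peribronchial fibroblast genes Hhip and Aspn were also found more often in the first kind. Hhip gave 22.8% and 12.7% against 4.27% and 4.67%, and Aspn 25.2% and 20.3% against 11.1% and 10.3%. In lymphocytes, which should lack these genes, with a median depth of 2084 UMIs in CM and 2150 in TCM, Dcn had a UMI in 0.718% and 0.450%, Cd34 in 1.22% and 0.788%, and Cygb in 0.144% and 0.225% of cells. Dcn, Cd34 and Cygb were thus found in members with Pi16 or Col14a1 well above background, and most members with Clec3b alone had no UMI of them, although the first kind was also deeper (medians of 4761 and 6135 UMIs against 3306 and 3993).

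Members with Clec3b alone held genes of other mesenchymal cells. At least 10 summed UMIs of the pericyte genes Cox4i2, Higd1b, Gucy1a1, Ndufa4l2 and Cspg4 were found in 38 CM and 25 TCM members with Clec3b alone, and in 3 and 7 members with Pi16 or Col14a1. Only 7.32% of the CM and 12.5% of the TCM members past that limit had a UMI of Pdgfra, the PDGF receptor of fibroblasts, while 65.9% and 62.5% of them held Tcf21 and 65.9% and 71.9% Npnt. When members past a limit for pericyte, smooth muscle, mesothelial, MHC class II, epithelial or haemoglobin genes were set aside, 67 CM and 60 TCM members with Clec3b alone remained. Of these, 91.0% and 98.3% held Inmt and 73.1% and 88.3% held Tcf21, an enzyme and a transcription factor typical of alveolar fibroblasts. Members with Pi16 or Col14a1 held them too, Inmt in 69.1% and 70.9% and Tcf21 in 54.5% and 65.8%. Dcn was found in 16.4% and 10.0% of the remaining members with Clec3b alone. The members therefore formed a mixed set of collagen-positive cells, most of them with a UMI of Clec3b. Most cells with Pi16 or Col14a1 held Dcn, Cd34 and Cygb, and most of the others did not.

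**Figure D1:**
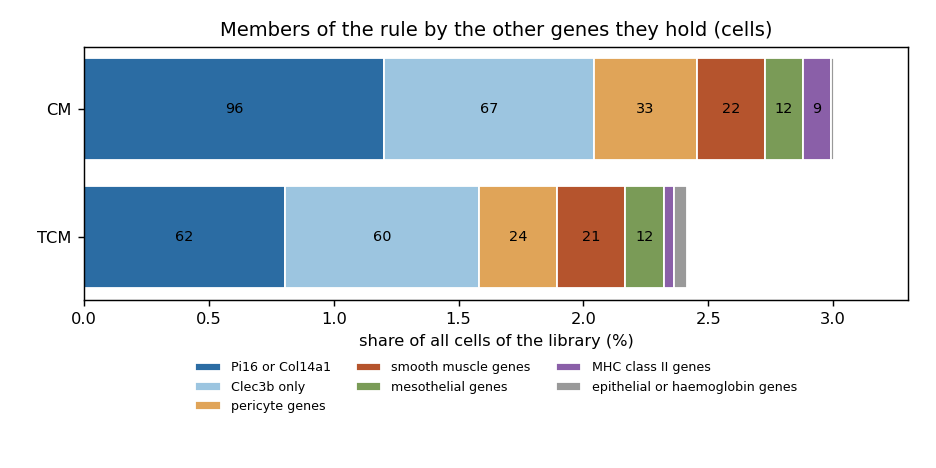
Members of the rule by the other genes they held, as a share of all cells of the library (horizontal axis, percent), with the number of cells in each segment. A member was placed in the first class whose limit it passed, and segments without a number hold 1 to 4 cells. Members with Pi16 or Col14a1 and no other class numbered 96 in CM and 62 in TCM, members past the pericyte limit 33 and 24, and members with Clec3b alone and no other class 67 and 60.

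**Figure D2:**
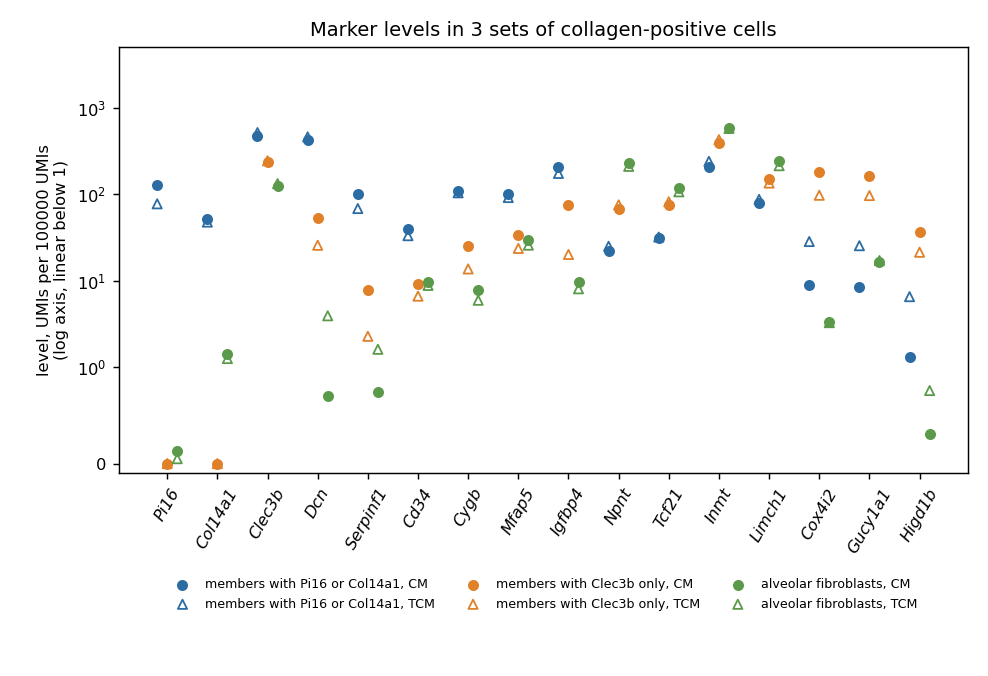
Level of marker genes in members with Pi16 or Col14a1, members with Clec3b alone and alveolar fibroblasts (vertical axis, CP100k on a log axis that is linear below 1; filled circles CM, open triangles TCM). Dcn, Serpinf1, Cd34, Cygb and Igfbp4 stood highest in members with Pi16 or Col14a1, Npnt and Tcf21 in alveolar fibroblasts, and the pericyte genes Cox4i2, Gucy1a1 and Higd1b in members with Clec3b alone.

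A small part of the members lay close to the limits of the rule. Exactly 2 marker UMIs were held by 18 CM and 19 TCM members, and collagen-positive cells 1 marker UMI short numbered 32 and 26. Members at the collagen minimum numbered 38 and 21, against 51 and 30 cells 1 UMI short of it. The marker sum equalled the sum of the alveolar genes in 14 CM members (5.83%) and 22 TCM members (11.8%). A single UMI of Ptprc, Cdh5 or Epcam kept out 31 CM and 26 TCM cells.

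Some CM members had alike counts over their abundant genes. A pair was alike when its chi-square per gene, a measure of how far the counts differ, was within a limit of 1.1. Only genes with at least 10 UMIs in the pair were compared. In CM, 22 of 23596 pairs were alike, and pairs with a member in common were joined into sets. The sets held 17 members in 5 sets in CM, and 2 members in 1 set in TCM. Members of a set need not all be alike in pairs, and 1 CM set held droplets of 1388 and 4570 UMIs. The largest set, of 6 CM droplets, held 243 of the 438 Cd74 UMIs of all CM members together with the myeloid genes Tyrobp and Cd209a. With such droplets counted once, the log2 ratio of Cd74 was -1.03 and that of H2-Aa, another MHC class II gene, was -0.86.

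Members were a smaller share of the TCM library. They made up 3.00% of CM cells (interval 2.64 to 3.40%) and 2.41% of TCM cells (2.08 to 2.78%), a log2 ratio of TCM over CM of -0.32 (-0.60 to -0.03). With alike droplets counted once, members numbered 228 and 185 and the log2 ratio was -0.25. No interval was worked out for that ratio, so it cannot be said to leave out 0. All collagen-positive cells, 805 in CM and 656 in TCM, were lower as well, with a log2 ratio of -0.24 (-0.39 to -0.09). Within the collagen-positive cells the members made up 29.8% in CM and 28.4% in TCM, which cannot be told apart at this depth (log2 ratio -0.07, -0.36 to 0.21). Alveolar fibroblasts, taken by the mirrored rule, numbered 471 and 399 (-0.19, -0.38 to 0.01).

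Members with Pi16 or Col14a1, a split that uses genes of the rule, made up 1.54% of all CM cells and 1.03% of all TCM cells (log2 ratio -0.59, -1.01 to -0.17), while the log2 ratio was -0.08 (-0.47 to 0.31) for members with Clec3b alone. These intervals overlap, and the difference between them was not tested. Without members past a limit for other cell types, and with alike droplets counted once, members with Pi16 or Col14a1 numbered 91 and 62 (-0.50, -0.99 to -0.02). No UMI of Npnt, Slc7a10 or Spon1 was held by 85 CM and 33 TCM members. Depth, which affects such a share, was higher in TCM, and whether it accounts for this difference was not tested. Each cell was also thinned to 1000 UMIs and the rule applied again. Members then made up 126 of 5816 CM cells (2.17%) and 96 of 6075 TCM cells (1.58%). Among these thinned members, Spon1 had a UMI in 60.3% in CM and 72.9% in TCM, and Slc7a10 in 15.9% and 33.3%.

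Gene levels were compared over 5617 genes with at least 50 UMIs in the members of both libraries together. A log2 ratio of at least 1 in favour of TCM was found for 45 genes (0.801%) and of at least 1 in favour of CM for 47 (0.837%). The counting interval left out 0 for 433 genes higher in TCM (7.71%) and 399 lower in TCM (7.1%), and the median log2 ratio of all 5617 genes was -0.00. Stricter conditions also asked for the same direction when every cell weighed the same and when cells were thinned and, in the library where the gene was higher, for at least 10 cells with a UMI and a level no lower than in free RNA. They left 229 genes higher (4.08%) and 198 lower (3.53%). Among members with Pi16 or Col14a1, 5.95% of these genes were higher and 5.15% lower beyond the interval, and among alveolar fibroblasts 8.55% and 6.71%.

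The 12 genes furthest up under the stricter conditions were Zbtb16, Fabp3, Colq, Pdk4, Fgfr4, Chid1, Ptrhd1, Foxo3, Med13l, Hyou1, Ube4b and Akip1. Zbtb16 (chromosome 9, 48654297 to 48836222, minus strand, build GRCm38), which encodes the zinc finger repressor PLZF and is induced by glucocorticoids, led them. It gave 62 UMIs in CM and 206 in TCM, or 5.45 and 21.0 CP100k, a log2 ratio of 1.94 (1.53 to 2.38). It was found in 48 of 240 CM members and in 108 of 186 TCM members (58.1%), and in 17.5% and 57.3% after thinning. In lymphocytes it was found in 2.37% and 2.93%. The difference was present in members with Pi16 or Col14a1 (2.13, 1.44 to 2.87), and alveolar fibroblasts also had more Zbtb16 in TCM (1.52, 1.31 to 1.74). The excess of the members over the alveolar fibroblasts, 0.42, had an interval of -0.05 to 0.91, so it could not be told from 0.

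Pdk4, the kinase that turns off pyruvate dehydrogenase, gave 15 and 39 UMIs (log2 ratio 1.59, 0.70 to 2.56). Foxo3, a transcription factor of starvation and stress, gave 32 and 63 UMIs (1.19, 0.55 to 1.85). Both were also higher in TCM alveolar fibroblasts, at 0.80 and 0.69. In members with Pi16 or Col14a1 the interval of Pdk4 held 0 (1.06, -0.25 to 2.45) and that of Foxo3 did not (1.57, 0.62 to 2.60). Tsc22d3, which encodes the glucocorticoid-induced leucine zipper protein GILZ, gave 335 UMIs (29.4 CP100k) in CM and 554 (56.4 CP100k) in TCM. Its log2 ratio of 0.94 (0.74 to 1.14) exceeded that in alveolar fibroblasts, 0.32, by 0.62 (0.39 to 0.84). Angptl4, a secreted inhibitor of lipoprotein lipase, went from 12.4 to 23.6 CP100k (0.93, 0.62 to 1.24).

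The whole list of glucocorticoid-induced genes was mixed. Of its 12 genes considered, 4 were higher beyond the interval and 3 lower, with a median of 0.11, against 8 higher and 1 lower in alveolar fibroblasts. The 4 were Zbtb16, Pdk4, Tsc22d3 and Errfi1, a feedback inhibitor of the EGF receptor, and all 4 met the stricter conditions. However, Errfi1 was at -0.12 in the members with Pi16 or Col14a1 left after the removal of other cell types and alike droplets. The interval of Pdk4 held 0 there (1.01, -0.40 to 2.51). Those lower were the metallothioneins Mt1 and Mt2 and the receptor gene Nr3c1. Mt1 went from 264 to 203 CP100k by summed UMIs (-0.38, -0.46 to -0.30), yet its log2 ratio was 0.10 with equal weight for every cell and 0.37 with thinned cells, so its direction depended on the weight of deep cells.

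Among the genes furthest up were also genes that were at least as high in alveolar fibroblasts. Fabp3, a fatty acid-binding protein, gave 14 UMIs in CM and 45 in TCM members (1.90, 1.01 to 2.88), while in alveolar fibroblasts it went from 13.4 to 10.7 CP100k (-0.33, -0.59 to -0.07). Fgfr4, an FGF receptor, gave 31 and 66 UMIs (1.30, 0.67 to 1.97), and its level in alveolar fibroblasts was 15.6 and 15.5 CP100k. Colq, the collagen tail of acetylcholinesterase, gave 16 and 45 UMIs (1.70, 0.85 to 2.63) beside 11.3 CP100k in alveolar fibroblasts of both libraries. Of the 14 further alveolar fibroblast markers considered, 5 were higher beyond the interval and 1 lower, with Inmt going from 280 to 332 CP100k and Mfap4, a microfibril-associated protein, from 251 to 408. Among members with Pi16 or Col14a1, Mfap4 had a log2 ratio of 0.14 (0.03 to 0.25), against 0.70 over all members. In the same members Fabp3 gave 1.69 (0.08 to 3.55) and Fgfr4 1.56 (-0.08 to 3.44), and Colq had 3 UMIs in CM and 2 in TCM.

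The other genes furthest up had low counts and belonged to no single group. Hyou1, a chaperone of the endoplasmic reticulum, gave 27 and 52 UMIs (1.16, 0.46 to 1.89). Med13l, a subunit of the kinase module of Mediator, gave 29 and 56 (1.16, 0.49 to 1.86). Ube4b, a ubiquitin chain-elongation factor, gave 26 and 50. Chid1 gave 22 and 44, Ptrhd1 17 and 34 and Akip1 30 and 57. In the CM members the levels of Fabp3, Ptrhd1, Foxo3, Hyou1 and Ube4b lay below those in free RNA. In members with Pi16 or Col14a1 the interval of Hyou1, Med13l, Ube4b and Chid1 still left out 0, and that of Ptrhd1 and Akip1 did not. Akip1 was at -0.34 in members with Pi16 or Col14a1 left after the removal of other cell types.

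Among the 12 genes furthest down were Jmjd6, Ptch1, Arhgap28, Gm47283, Spred2, Pde1a, Ccn4, Cnep1r1, Tmem65, Mfsd6 and Nrarp. Ptch1 (chromosome 13, 63508328 to 63573598, minus strand, GRCm38), the hedgehog receptor and itself a target of that pathway, gave 66 UMIs in CM and 23 in TCM. Its level went from 5.80 to 2.34 CP100k (log2 ratio -1.31, -2.06 to -0.60), while in alveolar fibroblasts it was 2.41 and 2.23. Ccn4, a matricellular protein and Wnt target, gave 49 and 18 UMIs (-1.23, -2.10 to -0.43). Hhip, another hedgehog-binding protein and target, gave 142 and 52 UMIs (-1.24, -1.72 to -0.77), and in the members with Pi16 or Col14a1 left after the removal of other cell types its log2 ratio was -0.82 (-1.39 to -0.28). Members with a UMI of Hhip numbered 33 and 15, and no ratio could be had after thinning. Hhip is also a marker of peribronchial fibroblasts. In collagen-positive cells that were neither members nor alveolar fibroblasts it stood at 90.3 CP100k in CM and 104 in TCM. Whether fewer peribronchial cells among the TCM members account for its difference was not tested.

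Jmjd6, a nuclear hydroxylase, gave 51 and 17 UMIs (-1.37, -2.26 to -0.56). Spred2, an inhibitor of Ras and MAP kinase signalling, gave 44 and 16 (-1.25, -2.17 to -0.39). Nrarp, a Notch target, gave 36 and 14 UMIs, of which 29 and 10 lay in members with Clec3b alone. Pde1a, a phosphodiesterase, gave 41 and 15. In members with Pi16 or Col14a1 the interval of Jmjd6, Ptch1, Spred2, Cnep1r1 and Tmem65 still left out 0. That of Arhgap28, Gm47283, Pde1a, Ccn4, Mfsd6 and Nrarp did not. Gm47283, a gene model on chromosome Y counted here in cells of female mice, gave 44 and 16 UMIs, and its reads may belong to a near-identical copy elsewhere. In the TCM members the levels of Jmjd6, Mfsd6, Tmem65, Spred2, Nrarp and Gm47283 lay below those in free RNA. Differences from alveolar fibroblasts beyond the interval were found for Ptch1, Spred2, Cnep1r1, Tmem65 and Mfsd6 of the genes named here.

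**Figure D3:**
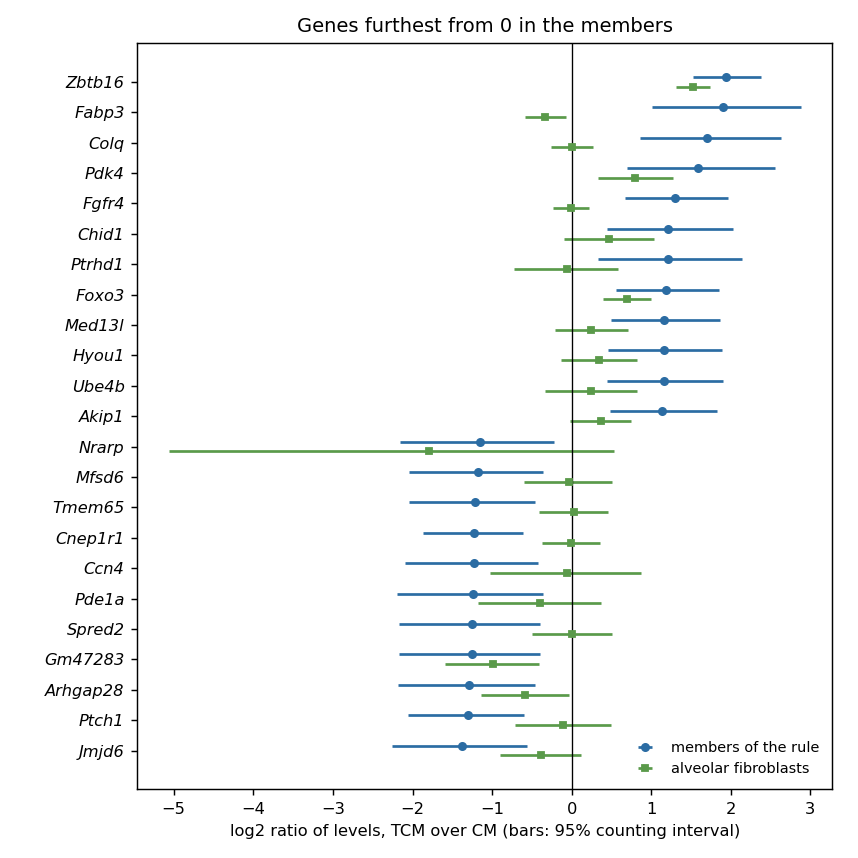
Log2 ratio of levels, TCM over CM (horizontal axis), for the 12 genes furthest up and the genes furthest down that are named in the text, all of which met the stricter conditions. Circles are members and squares alveolar fibroblasts, with bars for the 95% counting interval. Zbtb16, Pdk4 and Foxo3 lay right of 0 in both kinds of cell, while Fabp3, Colq and Fgfr4 did so in the members and not in alveolar fibroblasts.

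Adventitial marker genes outside the rule were lower in the TCM members as a group. Of 18 genes considered, 12 were lower beyond the interval and 0 higher, with a median log2 ratio of -0.24. Over all genes, 7.1% were lower and 7.71% higher. The stricter conditions were met by 9 of the 12, and by 3.53% of all genes as lower. Serpinf1, which encodes the angiogenesis inhibitor PEDF, gave 726 UMIs in CM and 355 in TCM, or 63.8 and 36.1 CP100k (-0.82, -1.01 to -0.63). Igfbp4, which binds insulin-like growth factors, gave 152 and 99.1 CP100k (-0.62, -0.74 to -0.51). Cd34 gave 27.4 and 20.3, and Mfap5, a microfibril glycoprotein, 73.9 and 58.5. Among members with Pi16 or Col14a1 the median was -0.14, with 4 of 18 lower and 2 higher (5.15% and 5.95% of all genes in that set). In those left after the removal of other cell types it was -0.07, with 4 lower and 4 higher (4.36% and 4.08% of all genes in that set). Dcn turned from -0.16 (-0.23 to -0.08) over all members to 0.10 (0.02 to 0.18) in members with Pi16 or Col14a1. Serpinf1 and Igfbp4 stayed lower in the latter, at -0.58 (-0.77 to -0.39) and -0.23 (-0.35 to -0.11).

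Of the rule's own markers, Pi16 (chromosome 17, 29317680 to 29330593, plus strand, GRCm38) gave 869 UMIs in CM and 390 in TCM, or 76.3 and 39.7 CP100k (-0.94, -1.12 to -0.77). A single CM cell held 193 of them. Within members with Pi16 or Col14a1 the log2 ratio was -0.73. Col14a1 gave 31.1 and 24.4 CP100k (-0.35, -0.59 to -0.11), and Clec3b 378 and 384 (0.02, -0.04 to 0.09).

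Genes that set the members apart from alveolar fibroblasts came from several kinds of cell. Dcn stood at 277 CP100k in CM members and 248 in TCM members, whereas alveolar fibroblasts gave 16 UMIs of it in CM and 78 in TCM. Lum, which encodes the proteoglycan lumican, gave 172 UMIs in CM and 146 in TCM members and 0 in alveolar fibroblasts of either library. Ccl11, the eosinophil chemokine eotaxin, gave 165 and 102 UMIs, of which 1 cell of each library held 70 and 74. The mesothelial genes Msln and Upk3b were also high, with Msln at 41.7 and 47.0 CP100k, but only 12 members of each library passed the mesothelial limit.

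The fibrillar collagens of the rule are given as a description. Col1a2 gave 122 and 143 CP100k (0.23, 0.12 to 0.33), Col3a1 136 and 157 (0.21, 0.10 to 0.31), and Col1a1 111 and 127 (0.20, 0.08 to 0.31). Outside the rule, Col5a1 gave 0.15 (-0.22 to 0.53) and Col5a2 -0.22 (-0.55 to 0.12). Of 15 collagens considered, Col1a2, Col3a1 and Col1a1 alone were higher beyond the interval and Col14a1 alone was lower, all of them genes of the rule. The median, which counts these genes, was 0.12, against 0.25 with 10 of 15 higher in alveolar fibroblasts. The considered collagens outside the rule ran from -0.62 for Col8a1 to 0.49 for Col18a1, each with an interval that held 0. In the members with Pi16 or Col14a1 left after the removal of other cell types, Col1a2 gave 0.48 (0.35 to 0.61). There 6 of 15 collagens were higher, a count that includes genes of the rule.

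Other matrix genes went both ways. Among 15 remodelling enzymes and inhibitors, 2 were higher and 3 lower beyond the interval. Adamts2, the procollagen N-proteinase, went from 17.8 to 24.2 CP100k (0.44, 0.17 to 0.72), and Pcolce2, an enhancer of procollagen C-proteinase, from 148 to 171. Adamts1, an aggrecan-cleaving protease, went from 20.1 to 11.7 (-0.78, -1.12 to -0.45). Of 18 elastic fibre genes 4 were higher and 4 lower, among them Fbln2, fibulin-2, with a log2 ratio of -0.92 and Lox, the enzyme that cross-links collagen and elastin, with 0.46, which was -0.06 after thinning. Proteoglycan and hyaluronan genes gave 2 higher and 3 lower of 14.

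Chemokines and cytokines were lower in TCM by summed UMIs. Of 15 genes considered, 9 were lower beyond the interval and 1 higher, with a median of -0.48, against 7.1% lower and 7.71% higher over all genes. With equal weight for every cell the median was -0.30, and with thinned cells 0.21. Of the 15, 2 met the stricter conditions as lower, against 3.53% of all genes considered. Cxcl1, a neutrophil chemokine, gave 433 and 201 UMIs, or 38.0 and 20.5 CP100k (-0.89, -1.14 to -0.65), but it was found in 40 CM and 34 TCM members and its log2 ratio was 0.68 after thinning. Il6 gave 74 and 35 UMIs (-0.87, -1.49 to -0.27), of which 31 lay in 1 CM cell, and it was higher with equal weight for every cell (0.68). Csf1, the macrophage growth factor, gave 13.3 and 8.65 CP100k (-0.62, -1.02 to -0.22) and kept its direction under both. Cxcl13 gave 470 UMIs in CM and 5 in TCM, but 465 came from 1 cell, and 98 of the 120 CM UMIs of Ccl7 came from 1 cell. Ccl19, a chemokine for T cells and dendritic cells, was the gene that was higher, with 51 and 93 UMIs (1.08, 0.57 to 1.60), of which 44 lay in 1 TCM cell.

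Immediate early genes, which respond within minutes to stimulation and to tissue dissociation, were lower by summed UMIs. Of 18 genes considered, 12 were lower beyond the interval and 1 higher, with a median of -0.31, against 7.1% lower and 7.71% higher over all genes. That median was -0.03 with equal weight for every cell and 0.29 with thinned cells. Klf4 went from 37.4 to 22.2 CP100k (log2 ratio -0.75, with an interval wholly below 0) and kept its direction under both, and in alveolar fibroblasts it was higher (0.60, 0.33 to 0.87). Fos went from 273 to 211 and Junb from 303 to 244, and both turned after thinning (0.03 and 0.23). Myc was the gene that was higher, with 29 and 52 UMIs (1.06, 0.37 to 1.76), 21 of them in 1 TCM cell.

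Heat-shock chaperone genes gave a like picture, with 8 of 13 lower beyond the interval and 1 higher, against 7.1% and 7.71% of all genes. The median of these 13 was -0.43 by summed UMIs, -0.31 with equal weight for every cell, 0.16 with thinned cells, and -0.17 in alveolar fibroblasts. Dnaja1, a co-chaperone of Hsp70, gave 51.2 and 36.0 CP100k (-0.51, -0.70 to -0.31), and Hsp90ab1, the constitutive Hsp90, 215 and 181 (-0.25, -0.34 to -0.16), both in the same direction under every one of these settings. Dnajb1 gave 27.8 and 17.4 (-0.67, -0.95 to -0.40) and turned after thinning (1.11).

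Among TGF-beta and BMP genes, 5 of 16 were lower beyond the interval and 1 higher, with a median of -0.27 that was 0.12 after thinning. Over all genes, 7.1% were lower and 7.71% higher. Tgfb1, the ligand, gave 54 and 22 UMIs (-1.08, -1.87 to -0.34), at a level below that in free RNA, 4.74 against 13.5 CP100k in CM. Tgfbi, a secreted matrix protein induced by TGF-beta, gave 106 and 43 UMIs (-1.09, -1.64 to -0.57). The receptor gene Tgfbr2 was the 1 that was higher, at 17.1 and 21.3 CP100k (0.31, 0.02 to 0.60).

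Growth factors and their receptors went both ways, with 5 of 17 higher and 4 lower beyond the interval. Igf1 gave 15.8 and 10.6 CP100k in the members (-0.58, -0.94 to -0.22) and 4.20 and 6.73 in alveolar fibroblasts (0.68, 0.29 to 1.08). Vegfd, a ligand of the lymphatic receptor VEGFR3, was higher, at 14.6 and 21.8 (0.58, 0.28 to 0.88), also in members with Pi16 or Col14a1 (0.58, 0.13 to 1.04). Axin2, a Wnt target, was the 1 of 11 Wnt pathway genes that was lower beyond the interval (-0.97, but 0.71 after thinning), and 0 were higher.

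**Figure D4:**
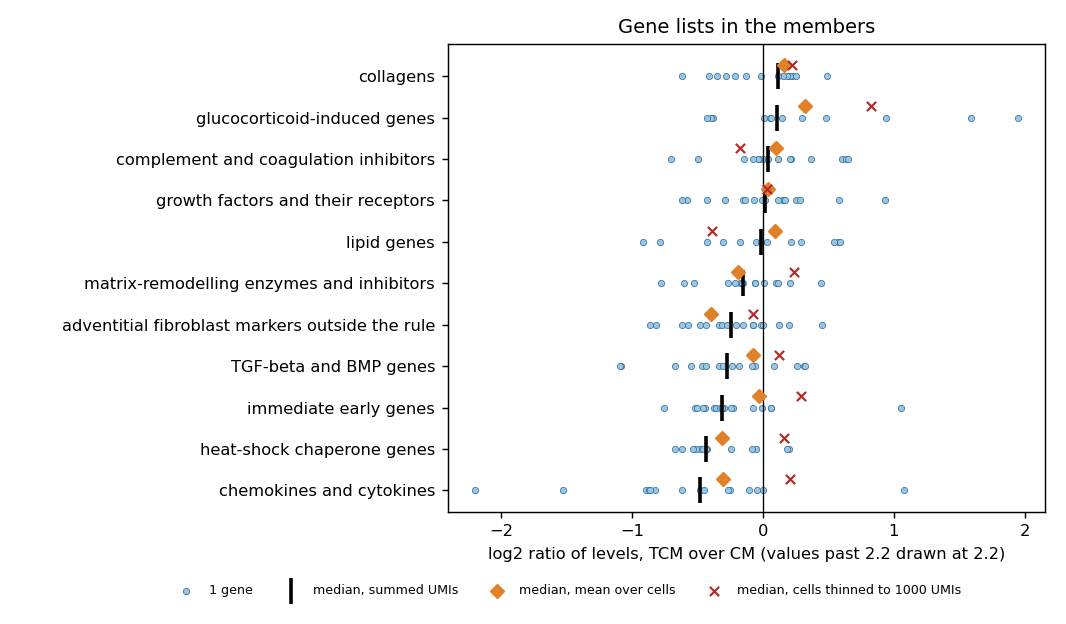
Log2 ratio of levels, TCM over CM (horizontal axis), for each gene of 11 lists with at least 50 UMIs in the members (dots), with the list median by summed UMIs (bar), with equal weight for every cell (diamond) and with cells thinned to 1000 UMIs (cross). The collagen medians lay above 0 and the adventitial marker medians below 0 under all 3 measures. The collagen list holds Col1a1, Col1a2, Col3a1 and Col14a1, which are genes of the rule, so its medians are descriptions. The medians of immediate early, heat-shock, chemokine and TGF-beta genes turned from below to above 0 after thinning.

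Of 15 complement and coagulation inhibitor genes, 4 were higher beyond the interval and 0 lower, and 0 met the stricter conditions. In the members with Pi16 or Col14a1 left after the removal of other cell types, 4 were higher and 2 lower, and in alveolar fibroblasts 3 and 2. C3, the central complement component, gave 96.7 and 147 CP100k (0.60, 0.49 to 0.72), but -0.12 after thinning and 0.06 (-0.13 to 0.25) in that set of members. C4b gave 23.2 and 35.9 (0.63, 0.40 to 0.87), and in that set 0.45 (0.08 to 0.82), but -0.12 after thinning.

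Of 13 lipid genes considered, 1 was higher and 2 lower beyond the interval, with a median of -0.02. Over all genes considered, 7.71% were higher and 7.1% lower. The 2 lower lipid genes were genes of cholesterol synthesis and its control: Hmgcs1, a synthase early in the pathway, with 96 and 48 UMIs (-0.79, -1.32 to -0.27), and Insig1, a sterol sensor, with 46 and 21 (-0.92, -1.74 to -0.14). Both met the stricter conditions, which 3.53% of all genes considered met as lower.

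Genes of other cell types differed as well, and their values moved with a few members. Of 8 peribronchial and smooth muscle genes considered, 6 were higher and 2 lower, and the summed level of the list was 205 CP100k in CM and 414 in TCM. The actin gene Acta2 stood at 81.3 and 189 CP100k (log2 ratio 1.22) and the smooth muscle myosin Myh11 at 7.03 and 24.2 (1.79, 1.41 to 2.17). With members past a limit for other cell types left out they were -0.43 and -0.71, and after thinning -4.16 and -1.61. The members past the smooth muscle limit numbered 22 in CM and 21 in TCM. The MHC class II genes were lower, with Cd74 at 438 and 105 UMIs (-1.85, -2.17 to -1.54) and H2-Aa at 152 and 34 (-1.95, -2.53 to -1.40), and with the same members left out they were 0.00 and 0.02. Their levels in the members of both libraries lay below those in free RNA, 266 and 256 CP100k for Cd74 and 82.5 and 80.0 for H2-Aa. Pericyte markers summed to 224 and 193 CP100k, with 1 of 8 higher and 2 lower, and mesothelial markers to 110 and 118. Within members with Pi16 or Col14a1, pericyte markers summed to 38.1 and 99.0 CP100k, with 6 of 8 higher and 0 lower, and the smooth muscle list to 123 and 246. Erythroid genes summed to 98.0 and 3.26 CP100k, with 496 UMIs of the haemoglobin gene Hbb-bs in 1 CM cell, and epithelial markers to 445 and 615, most of them Sftpc, which stood higher in free RNA than in the members. The neutrophil genes S100a8 and S100a9 went from 5 to 97 and from 8 to 177 UMIs. Their level in free RNA was far above that in the members, at 51.9 and 264 CP100k for S100a8 and 96.0 and 437 for S100a9 in CM and TCM. The summed levels were 24.5 and 26.9 CP100k for 8 endothelial genes and 8.08 and 5.80 for 10 lymphoid genes, most of which had too few UMIs to be considered.

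Interferon-stimulated genes gave 3 higher and 2 lower of 16, NF-kB targets 0 and 2 of 13, and cytokine receptors 1 and 2 of 12. Acute-phase and IL-6 response genes gave 3 and 2 of 9, and matricellular genes 4 and 3 of 12. Circadian clock genes gave 1 and 0 of 5, retinoic acid genes 1 and 1 of 7, prostaglandin genes 1 and 0 of 5, S100 genes 1 and 1 of 7, and cell cycle genes 0 and 0 of 3. For all genes considered these shares were 7.71% higher and 7.1% lower. In members with Pi16 or Col14a1, NF-kB targets gave 1 higher and 6 lower, with a median of -0.31, against 5.95% and 5.15% of all genes. In those left after the removal of other cell types and alike droplets they gave 3 and 4, against 4.08% and 4.36%.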

How the data were processed

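Single-cell RNA was measured in 2 droplet libraries of whole mouse lung, 1 for CM and 1 for TCM, grouped by the treatment label. Per the study's methods and the submitters' processing notes, the authors used a 5-prime droplet kit (v1.1) and Cell Ranger for mapping (version 4 in the file headers) against mm10 (GRCm38.p6). The deposited matrices hold raw UMI counts per gene and barcode, without normalization, for 32286 features and 737280 barcodes, empty droplets included. One feature, an added CD90.1 sequence, had 0 UMIs in the members. Coordinates and strands come from GENCODE vM21 (GRCm38).

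Members were found with the rule given at the start of the report. The members, the 35 gene lists and the comparisons were chosen with earlier results of these data known. UMIs were summed over the members of a library. Intervals (95%) are exact Poisson for sums, Clopper-Pearson for shares and conditional binomial for ratios (scipy 1.17.1). Those for ratios were tried on gene sums simulated with Poisson counting error alone. That trial cannot show how they do where a few cells hold most UMIs of a gene. All intervals cover counting error only.

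Named genes were the 12 furthest up and the 12 furthest down that met the stricter conditions, of each list the genes with the largest and smallest ratio and the most abundant, the genes of the rule, and the 12 highest over alveolar fibroblasts. One gene that this rule picks is not reported here. Other genes were named after their values were seen. Alveolar fibroblasts were collagen-positive cells whose UMIs of Npnt, Slc7a10 and Spon1 summed to at least 2 and exceeded those of Pi16, Col14a1 and Clec3b. Scrublet (scanpy 1.11.5) marked 0 doublets at its automatic threshold and so had not worked. No doublet was removed, and removal of the top 6% of scores, which held 5 CM and 3 TCM members, was an alternative. Other alternatives changed the weight of cells, depth, scaling, rule, mitochondrial filter, free RNA, low-count filter, single cells and denominator. Restriction to members with Pi16 or Col14a1, removal of members with genes of other cell types and of alike droplets, and all 3 together were added after the data had been seen. No annotation of cells by the authors was used here.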

Additional observations from a re-analysis of the deposited data

Results flagged for a closer look

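For several genes the members and the alveolar fibroblasts differed between CM and TCM in opposite directions, each beyond its own counting interval. With 1 library a treatment, the difference between these kinds of cell was not tested against the spread between mice. Among genes lower in TCM members and higher in TCM alveolar fibroblasts, the log2 ratios were -0.16 and 2.50 for Dcn, -0.82 and 1.12 for Serpinf1, -0.87 and 0.98 for Il6, -0.75 and 0.60 for Klf4, and -0.58 and 0.68 for Igf1. The metallothionein Mt1 gave -0.38 and 0.18, and Mt2 gave -0.39 and 0.53. For the MHC class II genes, Cd74 gave -1.85 and 0.52 and H2-Aa gave -1.95 and 0.78, but with members past a limit for other cell types left out they were at 0.0012 and 0.025 in the members, and their levels in the members lay below those in free RNA. Among genes higher in TCM members and lower in TCM alveolar fibroblasts, Fabp3 gave 1.90 and -0.33 and Acta2 gave 1.22 and -0.18. In the members, however, Acta2 was at -4.16 after thinning. In members with Pi16 or Col14a1 left after the removal of other cell types and alike droplets it was at -0.23. Il6, Mt1 and Mt2 in the members also turned to higher in TCM, both with equal weight for every cell and after thinning. Npnt (0.29 and -0.11) and Slc7a10 (0.99 and -0.15) belong to the rule that separates these cells.

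Alveolar fibroblasts gave 16 UMIs of Dcn in CM and 78 in TCM, against 3148 and 2439 in the fewer members. The alveolar level of Dcn lay below its level in free RNA in both libraries, and its log2 ratio was 0.10 in members with Pi16 or Col14a1.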

How the results depend on the processing

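The 2 libraries cannot show the spread between mice, and depth limits genes with few UMIs. No paired analysis was possible because each treatment had 1 library. The share of members among all cells kept its direction under every setting run, and its log2 ratio was -1.31 (-1.07 among collagen-positive cells) for members without a UMI of the alveolar genes. Genes past 2-fold, 45 higher and 47 lower, numbered 91 and 83 with equal weight for every cell, 8 and 5 with cells thinned to 1000 UMIs, 174 and 216 with at least 20 UMIs per gene, 694 and 734 without a filter on low counts, and 18 and 29 in members with Pi16 or Col14a1 left after the removal of other cell types and alike droplets. Fewer or more genes entered these last 4 counts. Other scalings, filters and rules moved neither count by over 1.5 times.

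Of the genes named, these changed direction, and the cause was not tested. With equal weight for every cell (mean over cells) Il6 gave 0.68, Mt1 0.10 and Mt2 0.17. After thinning, Acta2 gave -4.16, Axin2 0.71, C3 -0.12, C4b -0.12, Cxcl1 0.68, Dnajb1 1.11, Fos 0.034, Il6 1.29, Junb 0.23, Lox -0.055, Mt1 0.37, Mt2 0.44, Myh11 -1.61 and Nr3c1 0.19. In members with Pi16 or Col14a1, Cxcl13 gave 1.43, Dcn 0.10 and Lox -0.28. With other cell types and alike droplets also left out, Acta2 gave -0.23, Akip1 -0.34, Cygb 0.0039, Dcn 0.11, Errfi1 -0.12, Gm47283 0.10, H2-Aa 0.14 and Lox -0.33. With other cell types left out of all members, Acta2 gave -0.43, C3 -0.071, Cd74 0.0012, H2-Aa 0.025 and Myh11 -0.71. In members without alveolar genes, 85 in CM and 33 in TCM, Acta2 gave -0.36, Akip1 -0.57, Ccl19 -0.15, Cxcl1 0.28, Il6 0.34, Inmt -0.80, Mt1 1.13, Mt2 1.1, Myc -0.24, Pcolce2 -0.21, Pdgfra -0.38 and Tmem65 0.76. Ccl7 gave 0.15 without the cell with most UMIs in each library.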
